A study of Mus musculus with 24 samples.

Results

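The tissue inhibitors of metalloproteinases (TIMPs) and a group of matrix metalloproteinases (MMPs) were followed as mRNAs in whole mouse lung. The group consisted of 10 genes taken by symbol from the deposited gene table: Timp1, Timp2, Timp3, Timp4, Mmp2, Mmp3, Mmp11, Mmp12, Mmp14 and Mmp19. They were 10 of 26253 genes in the table, and all 10 were among the 16153 genes that passed the filter on low counts. The mice ate either a control diet or one enriched in DHA, docosahexaenoic acid, which is an omega-3 fatty acid of fish oil. They were afterwards exposed to filtered air or to ozone, a reactive gas that damages the epithelium of the airways. The 4 groups were control diet with filtered air, control diet with ozone, DHA diet with filtered air and DHA diet with ozone, with 6 libraries in each and 24 in all. The labels name no strain, sex, age, ozone dose, exposure length, diet length or time of collection, and no genetic change. They also do not say whether the 6 libraries of a group came from separate mice, so p-values describe the spread between these libraries.

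Library totals ran from 18053493 to 26225630 counts. Levels are in CPM, the counts of a gene scaled to the size of the library, with library sizes scaled by the trimmed mean of M-values (TMM). A gene was called changed at a Benjamini-Hochberg adjusted p under 0.05 over all genes tested, in edgeR's quasi-likelihood test. Markers of lung epithelium were high in all libraries: alveolar type 2 markers summed to 22300 to 36500 CPM and club cell markers to 57800 to 140000 CPM. The alveolar type 2 sums were 22300 to 33600 CPM in control-diet air and 31100 to 32500 in control-diet ozone. On the DHA diet they were 31600 to 34900 in air and 33200 to 36500 after ozone. With ozone, 3 of these 5 markers were called higher on the control diet and 2 on the DHA diet (8.93% and 12.7% of all genes). In air, 2 were called higher on the DHA diet (0.724%). Their part in the differences below was not tested. Markers of cardiac muscle, whose source in the sample was not tested, summed to 1210 to 2870 CPM, and adipocyte markers to 103 to 278 CPM. Libraries 1 to 3 of control-diet air differed from libraries 4 to 6 of the same group. Their mean log2 CPM over 79 ribosomal protein genes was 6.00 to 6.07, against 6.40 to 6.45 in libraries 4 to 6. DHA-diet ozone library 1 had the lowest summed club cell markers (57800 CPM) and ciliated cell markers (722 CPM) of all 24 libraries. Where leaving out these libraries changed a call on one of the 10 genes, the value without them is given.

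MMPs are zinc-dependent proteases that cleave collagens, elastin, laminins and many signalling proteins outside the cell, and most are made as inactive proenzymes. TIMPs bind the active site of MMPs and block it, and Timp3, held in the matrix, also blocks proteases of the ADAM and ADAMTS families. In the lung, the balance between the proteases and their inhibitors is known for its part in repair after injury, in emphysema and in fibrosis.

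Per unit of transcript length, Timp2 and Timp3 stood highest, while Timp1 in air and Timp4 were below several of the proteases. CPM was divided by the length in kilobases of the longest principal transcript of each gene in GENCODE M21, because raw CPM favours long transcripts. In control-diet air, Timp2 had a level of 162 CPM per kilobase and Timp3 115, followed by Mmp14 at 33.9, Mmp11 at 19.4 and Mmp2 at 16.02. Below these, Mmp3 had a level of 8.33 CPM per kilobase, Timp1 6.50, Mmp19 2.41, Timp4 0.817 and Mmp12 0.806. Several neighbours in this order were not separated. Timp1 was above Mmp3 in 1 of 6 control-diet air libraries and 2 of 6 DHA-diet air libraries, and Timp4 was above Mmp12 in 2 and 1 of 6. Mmp2 was below Mmp11 in all 6 control-diet air libraries, but above it in 3 of 6 control-diet ozone, 4 of 6 DHA-diet air and 4 of 6 DHA-diet ozone libraries.

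Timp1 moved within this order. In both ozone groups its level per kilobase was above that of Mmp2 in 6 of 6 libraries, against 0 of 6 in both air groups. It reached 26.5 CPM per kilobase in control-diet ozone, where it was the fourth of the 10 genes in each library, and 37.9 in DHA-diet ozone, where it was above Mmp14 in 3 of 6 libraries. Scaling by the summed length of all annotated exons in place of the principal transcript put Timp1 at place 3 in each ozone library and Mmp14 at places 4 to 5 in all groups, so the order of these genes depends on the transcript assumed.

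**Figure D1:**
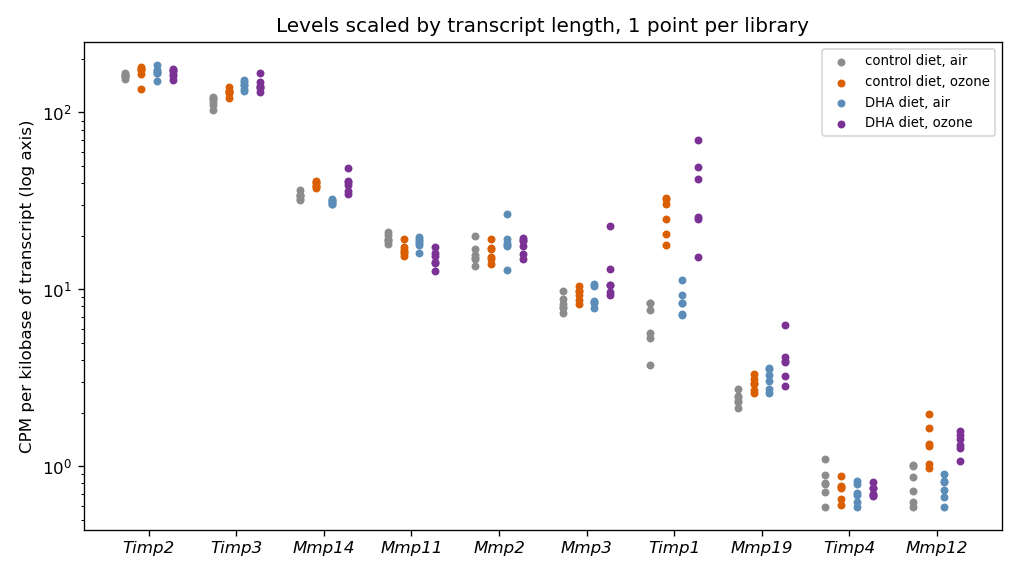
Each point is 1 library, with CPM per kilobase of the principal transcript on a logarithmic vertical axis and the 10 genes on the horizontal axis in the order of control-diet air. Timp2 and Timp3 sit above 100 CPM per kilobase, and the Timp1 points of both ozone groups sit above its air points.

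Ozone changed 5 of the 10 mRNAs on the control diet and 6 on the DHA diet. With the control diet, 4 were called higher after ozone (Timp1, Timp3, Mmp12 and Mmp14) and 1 lower (Mmp11), where 16.8% of all genes tested were called and 8.93% were called higher (1442 genes higher and 1271 lower). On the DHA diet, 5 were called higher (Timp1, Mmp3, Mmp12, Mmp14 and Mmp19) and 1 lower (Mmp11), beside 23.7% of all genes called and 12.7% called higher (2055 higher and 1769 lower). The median log2 difference over the 10 genes was 0.18 on the control diet and 0.20 on the DHA diet, beside a median of -0.01 over all genes in both comparisons. Timp1, Mmp12, Mmp14 and Mmp11 were called in the same direction on both diets. The 10 genes were chosen with results of these data known, so the counts describe them and are not a test of the group. The ozone effect was not shown to differ between diets for any of them, as the interaction given further on had 0 calls.

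**Figure D2:**
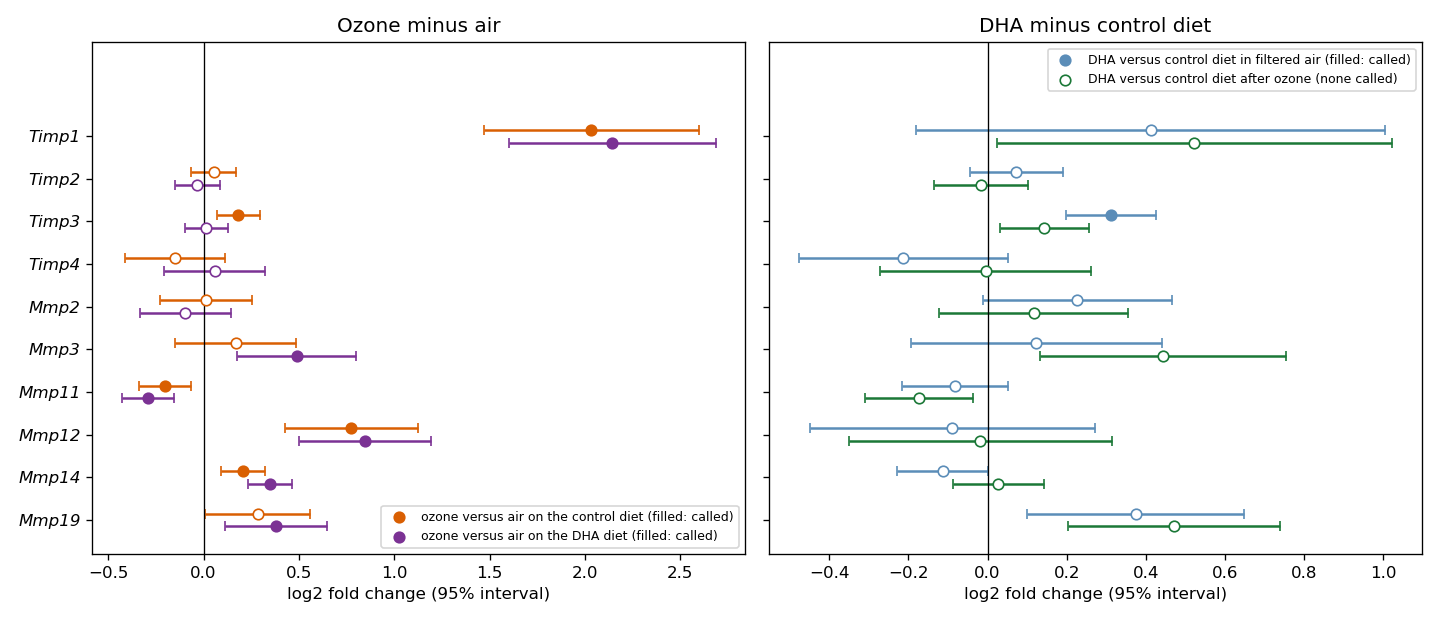
Points are log2 fold changes with 95% confidence intervals for the 10 genes, with ozone minus air in the left panel and DHA minus control diet in the right panel. Filled points were called at an adjusted p under 0.05. Timp1 has the largest ozone difference of the 10 on both diets (2.03 and 2.14), and Timp3 is the 1 gene called between diets in air.

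Timp1, a secreted inhibitor of most MMPs that is induced by cytokines of the interleukin-6 family, rose about 4-fold with ozone on either diet. Its gene lies on chromosome X at 20736405 to 20740977 (mm39). In control-diet air its lowest, median and highest levels were 3.29, 5.85 and 7.39 CPM, and in control-diet ozone 15.8, 24.5 and 29.0 CPM. The lowest ozone library was above the highest air library, so the groups did not overlap, which held for 7.77% of all genes tested in this comparison. Mean levels were 5.74 ± 1.67 CPM (SD, n = 6) in air and 23.4 ± 5.60 CPM after ozone, a fitted 4.09-fold difference (log2 2.03 ± 0.27 SE, adjusted p = 3.07e-05).

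On the DHA diet, Timp1 had lowest, median and highest levels of 6.32, 7.36 and 9.96 CPM in air and 13.4, 29.9 and 62.0 CPM after ozone. Again the groups did not overlap (9.03% of all genes tested), although the DHA-diet ozone libraries ran over a wide range, with library 1 highest and library 6 lowest. Means were 7.60 ± 1.34 and 33.5 ± 17.8 CPM (SD, n = 6), a 4.42-fold difference (log2 2.14 ± 0.26 SE, adjusted p = 5.50e-06). Without DHA-diet ozone library 1 the log2 difference was 1.87 (adjusted p = 5.46e-06). The difference between the 2 ozone effects was 0.11 on the log2 scale, with a 95% interval of -0.67 to 0.89 (adjusted p = 0.986).

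Within control-diet air, Timp1 was lower in libraries 1 to 3 (3.29 to 4.98 CPM) than in libraries 4 to 6 (6.71 to 7.39 CPM), the same libraries that were set apart by ribosomal protein genes. The part of that split in the Timp1 level was not tested. Timp1 was called higher with ozone when either set was left out, with a log2 difference of 1.70 without libraries 1 to 3 and 2.43 without libraries 4 to 6. In whole tissue, more RNA per cell and more cells that make it cannot be told apart, for Timp1 and for every gene described here. Summed alveolar macrophage markers (9 of 10 listed genes in the table, all 9 above the filter, none at 0) ran from 366 to 410 CPM in control-diet air and 464 to 572 after ozone, and from 348 to 419 and 464 to 623 on the DHA diet. Fibroblast markers (8 of 8) summed to 1300 to 1700 and 1350 to 1690 CPM on the control diet, and to 1490 to 1720 and 1420 to 1790 CPM on the DHA diet. Of the 9 alveolar macrophage markers, 1 was called higher with ozone on the control diet and 2 on the DHA diet. Of the 8 fibroblast markers these were 0 and 1, and none of either list was called lower. Over all genes, 8.93% and 12.7% were called higher. The part of these cell types in the Timp1 difference was not tested.

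**Figure D3:**
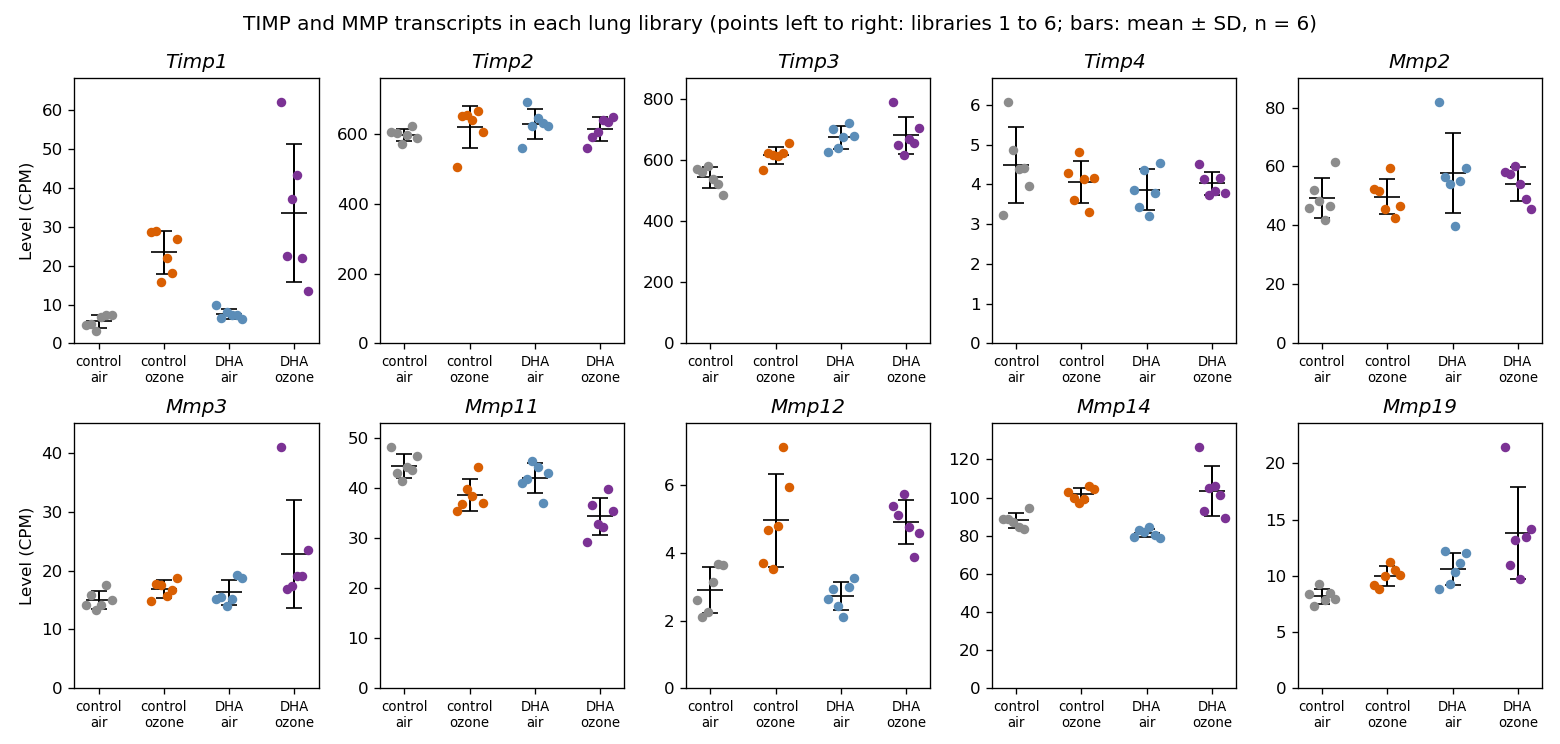
CPM of each of the 10 genes in each library, on linear axes that start at 0, with the 4 groups on the horizontal axis. Points within a group are libraries 1 to 6 from left to right, and bars give the mean ± SD (n = 6). The Timp1 ozone points lie above all air points on the same diet, and DHA-diet ozone library 1 lies far above the other points for Mmp3 (40.9 CPM) and Mmp19 (21.4 CPM).

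Promoter sequence is shown for Timp1 and for 3 MMP genes that were called higher with ozone on at least 1 diet, because several MMP promoters and that of Timp1 are known to carry sites for AP-1, the dimers of Fos and Jun proteins, and for Ets factors of the PEA3 group. Promoters came from RefSeq on GRCm38.p6, which is another build than the mm39 of the counts, with 250 bases before the annotated start, 5′ to 3′ in the direction of the gene. Of the 10 genes, 8 had an entry, with 9 entries in all. Matches to the searched motifs are in capitals, on either strand. The motifs were TGANTCA (AP-1 consensus), TGAGTAA (the AP-1 variant described for Timp1), TTCNNNGAA (STAT), AGGAAG (PEA3/Ets) and TATAAA (a core promoter box), and no match of one motif lay over another in the sequences below.
Timp1, chrX:20869916-20870165: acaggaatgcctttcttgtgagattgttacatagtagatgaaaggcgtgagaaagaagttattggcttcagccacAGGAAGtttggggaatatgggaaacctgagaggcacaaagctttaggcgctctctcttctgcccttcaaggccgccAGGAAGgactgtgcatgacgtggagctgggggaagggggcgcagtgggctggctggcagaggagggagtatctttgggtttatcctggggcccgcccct
Mmp3, chr9:7445572-7445821: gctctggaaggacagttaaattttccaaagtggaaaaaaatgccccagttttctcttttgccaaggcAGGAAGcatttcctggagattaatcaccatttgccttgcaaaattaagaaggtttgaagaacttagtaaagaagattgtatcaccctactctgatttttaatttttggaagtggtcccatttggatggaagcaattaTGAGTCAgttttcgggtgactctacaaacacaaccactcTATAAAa
Mmp12, first annotated start, chr9:7344147-7344396: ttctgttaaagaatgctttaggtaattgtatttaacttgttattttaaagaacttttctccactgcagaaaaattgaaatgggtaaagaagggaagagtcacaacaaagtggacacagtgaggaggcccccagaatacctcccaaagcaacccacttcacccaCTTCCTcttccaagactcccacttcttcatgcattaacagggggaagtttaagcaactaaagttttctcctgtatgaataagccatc
Mmp12, second annotated start, chr9:7347124-7347373: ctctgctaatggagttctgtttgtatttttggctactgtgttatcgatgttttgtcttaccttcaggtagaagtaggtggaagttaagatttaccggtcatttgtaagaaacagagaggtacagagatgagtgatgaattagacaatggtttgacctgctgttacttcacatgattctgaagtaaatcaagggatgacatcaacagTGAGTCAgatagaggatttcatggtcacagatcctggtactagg
Mmp14, chr14:54431348-54431597: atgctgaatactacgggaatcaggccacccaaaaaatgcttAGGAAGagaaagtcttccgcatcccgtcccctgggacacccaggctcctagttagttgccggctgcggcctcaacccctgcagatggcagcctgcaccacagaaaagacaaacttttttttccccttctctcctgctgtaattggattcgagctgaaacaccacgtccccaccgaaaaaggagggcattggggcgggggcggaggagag

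With positions counted from the annotated start, AGGAAG in Timp1 began at -175 and -99. A further stretch held TGAGTAA and AGGAAG in close order from base 27 to base 46 after the annotated start, on the plus strand of chromosome X at 20870192 to 20870211.
Timp1, chrX:20870192-20870211: TGAGTAAtgcgtccAGGAAG

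The AP-1 consensus began at -46 in Mmp3 and at -44 from the second start of Mmp12, both as TGAGTCA. Mmp14 had AGGAAG at -209 and no match to TGANTCA or TGAGTAA in the window. Over all 32851 RefSeq promoter entries of the same 300 bases (250 before and 50 after the start), TGANTCA was present in 7.81%, TGAGTAA in 2.68%, TTCNNNGAA in 8.3%, AGGAAG in 35.4% and TATAAA in 13.6%. TTCNNNGAA was in none of the entries of these genes. A match shows only that the letters are there, and no binding was measured.

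Timp3, the inhibitor that binds to the matrix and blocks ADAM and ADAMTS proteases as well as MMPs, differed by diet in air. It lies on chromosome 10 at 86136276 to 86185370. Its lowest, median and highest levels were 484, 549 and 580 CPM in control-diet air and 624.9, 677 and 720 CPM in DHA-diet air. All 6 DHA-diet air libraries were above all 6 control-diet air libraries, which held in either direction for 1.85% of all genes. Mean levels were 542 ± 35.6 and 673 ± 36.3 CPM (SD, n = 6), a 1.24-fold difference (log2 0.31 ± 0.06 SE, adjusted p = 0.00696), and Timp3 was the 1 gene of the 10 called in this comparison, where 1.15% of all genes were called and 0.724% were called higher. With control-diet air libraries 1 to 3 left out, the log2 difference was 0.38 with an adjusted p of 0.104, and 0 genes of the whole table were called. With libraries 4 to 6 left out in their place, 1551 genes were called and Timp3 was among them.

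After ozone, Timp3 had lowest, median and highest levels of 568.1, 618 and 654 CPM on the control diet and 615, 662 and 788 CPM on the DHA diet. The ozone groups overlapped the air groups of their own diet. Ozone raised Timp3 1.13-fold on the control diet (log2 0.18 ± 0.06 SE, adjusted p = 0.0238), a call that was lost in 5 alternatives, among them library totals without further scaling (log2 0.14, adjusted p = 0.107) and control-diet air libraries 4 to 6 left out (log2 0.10, adjusted p = 0.274). On the DHA diet the ozone difference was 0.01 on the log2 scale, with a 95% interval of -0.10 to 0.13 (adjusted p = 0.886). The interaction was -0.17 (95% interval -0.33 to -0.01, unadjusted p = 0.0401, adjusted p = 0.800), so the smaller ozone difference on the DHA diet did not pass the test over all genes.

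Timp2, which besides inhibiting MMPs takes part in the activation of pro-Mmp2 by Mmp14, was not called in any comparison. Its position is chromosome 11 at 118191887 to 118246238. Levels on the control diet were 599 ± 17.2 CPM in air and 622 ± 60.9 CPM after ozone, and on the DHA diet 630 ± 42.2 and 615 ± 33.8 CPM (SD, n = 6). The ozone difference was 0.05 on the control diet (95% interval -0.06 to 0.17) and -0.03 on the DHA diet (-0.15 to 0.08) on the log2 scale. All 24 libraries lay between 505 and 692 CPM, and control-diet ozone library 1 was the lowest at 505 CPM.

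Timp4, an inhibitor known mainly from heart and fat, had the lowest mean CPM of the 4 inhibitors in each group, with counts of 67 to 129 per library. In control-diet air it was above Timp1 in library 2 (6.06 against 4.98 CPM) and library 3 (4.88 against 3.29 CPM). The Timp4 gene is on chromosome 6 at 115221406 to 115229167. Its levels were 4.49 ± 0.95 and 4.05 ± 0.526 CPM in air and after ozone on the control diet, and 3.87 ± 0.514 and 4.03 ± 0.297 CPM on the DHA diet (SD, n = 6). No comparison called it, and the ozone intervals were -0.41 to 0.11 on the control diet and -0.21 to 0.32 on the DHA diet (log2). Beside these, summed cardiac muscle markers (10 of 10 in the table) ran from 1720 to 2870, 1210 to 2010, 1320 to 2120 and 1250 to 1980 CPM in the same order of groups.

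Of the inhibitor genes, 3 lie within the span of a synapsin gene in the deposited coordinates, an arrangement known for this family, in which the inhibitor sits in a synapsin intron on the other strand. Timp1 lies within Syn1, Timp3 within Syn3 and Timp4 within Syn2. The strand setting of the counting is not known from the sources used here. Spans of whole genes were compared and not exons, so how many reads of a pair could be mixed is not known. Syn1 was at 0.884 to 0.986 CPM and Syn3 at 1.85 to 2.21 CPM as group means, far below Timp1 and Timp3. Syn2, at group means of 12.6 to 15.1 CPM, was above Timp4, whose level is therefore uncertain. Mmp19 shares part of its span with Tmem198b (6.54 to 8.28 CPM as group means), and Cep295nl (0.847 to 1.07 CPM) lies within Timp2.

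Mmp12, the macrophage metalloelastase, rose with ozone on both diets. It lies on chromosome 9 at 7344397 to 7360462. On the control diet its lowest, median and highest levels were 2.11, 2.88 and 3.67 CPM in air and 3.51, 4.74 and 7.10 CPM after ozone, with 1 ozone library inside the range of air. The mean went from 2.91 ± 0.678 to 4.96 ± 1.37 CPM (SD, n = 6), a 1.71-fold difference (log2 0.78 ± 0.17 SE, adjusted p = 0.00242). On the DHA diet the same 3 levels were 2.11, 2.79 and 3.25 CPM in air and 3.89, 4.94 and 5.74 CPM after ozone, without overlap. Means were 2.73 ± 0.415 and 4.91 ± 0.654 CPM, a 1.80-fold difference (log2 0.85 ± 0.17 SE, adjusted p = 0.000700).

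The counts behind Mmp12 were low, at 44 to 184 per library. In control-diet air it was lower in libraries 1 to 3 (2.11 to 2.61 CPM) than in libraries 4 to 6 (3.15 to 3.67 CPM), as Timp1 was. Without libraries 1 to 3 the log2 difference on the control diet was 0.50 and the call was lost (adjusted p = 0.0934). The summed alveolar macrophage markers given above were higher in every ozone library than in every air library of the same diet. Only 1 of the 9 markers was called higher on the control diet and 2 on the DHA diet, with median log2 differences of 0.15 and 0.05. The part of these markers in the Mmp12 difference was not tested. Summed markers of monocytes and recruited macrophages (10 of 10) ran from 338 to 394 and 401 to 530 CPM on the control diet, and from 342 to 501 and 398 to 722 CPM on the DHA diet. Of these 10, 1 was called higher on the control diet and 3 on the DHA diet, beside 8.93% and 12.7% of all genes. Their median log2 differences were 0.14 and 0.12. The list includes Fn1 and Spp1, which are also among the matrix genes below. The mean sum went from 361 to 433 CPM on the control diet and from 384 to 507 CPM on the DHA diet. In the same order, Fn1 went from 168 to 222 and from 196 to 265 CPM, and Spp1 from 43.3 to 53.3 and from 52.8 to 98.1 CPM.

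Mmp14, a membrane-anchored collagenase that activates pro-Mmp2 at the cell surface, was higher after ozone in every library. Its position is chromosome 14 at 54669055 to 54679914. Its lowest, median and highest levels on the control diet were 83.5, 88.1 and 94.4 CPM in air and 97.2, 101.4 and 105.9 CPM after ozone. The groups did not overlap, and the difference was 1.15-fold (log2 0.21 ± 0.06 SE, adjusted p = 0.0122). On the DHA diet the levels were 78.8, 81.4 and 84.4 CPM in air and 89.4, 103.0 and 126.2 CPM after ozone, also without overlap, a 1.27-fold difference (log2 0.35 ± 0.06 SE, adjusted p = 8.37e-05). Mean levels in air and after ozone were 88.0 ± 3.87 and 101.6 ± 3.42 CPM on the control diet, and 81.3 ± 2.20 and 103.4 ± 12.9 CPM on the DHA diet (SD, n = 6). The control-diet call was lost with library totals without further scaling (log2 0.17, adjusted p = 0.0683) and with control-diet air libraries 1 to 3 (adjusted p = 0.0633) or 4 to 6 (adjusted p = 0.0558) left out.

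Mmp2, the gelatinase that Mmp14 activates, was not called in any comparison. Its gene is on chromosome 8 at 93553925 to 93580050. Mean levels on the control diet were 49.3 ± 6.80 CPM in air and 49.8 ± 6.08 CPM after ozone, and on the DHA diet 57.7 ± 13.6 and 54.0 ± 5.76 CPM (SD, n = 6). DHA-diet air held both the lowest library of all, at 39.7 CPM, and the highest, library 1 at 81.7 CPM. The ozone interval was -0.23 to 0.25 on the control diet and -0.33 to 0.14 on the DHA diet (log2).

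Mmp11, or stromelysin-3, which is activated inside the cell by furin, fell on both diets. It lies on chromosome 10 at 75759056 to 75768337. On the control diet its lowest, median and highest levels were 41.4, 43.9 and 48.1 CPM in air and 35.3, 37.7 and 44.2 CPM after ozone. In 5 of 6 ozone libraries the level was below all air libraries, and library 5 was within the air range. The mean went from 44.5 ± 2.39 to 38.6 ± 3.14 CPM (SD, n = 6), 0.869 times the air level (log2 -0.20 ± 0.07 SE, adjusted p = 0.0348). This call was lost in 9 of 35 alternatives, among them leaving out control-diet air libraries 1 to 3 (log2 -0.22, adjusted p = 0.0912) or 4 to 6 (-0.20, adjusted p = 0.0950) and any single one of air libraries 1 and 6 and ozone libraries 1, 2, 4 and 6 of that diet (adjusted p = 0.0547 to 0.0943), with log2 values of -0.25 to -0.17 over all 35.

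On the DHA diet, Mmp11 had lowest, median and highest levels of 36.9, 42.3 and 45.4 CPM in air and 29.1, 34.1 and 39.8 CPM after ozone, again with 5 of 6 ozone libraries below all air libraries. Means were 42.0 ± 2.95 and 34.3 ± 3.74 CPM, 0.817 times the air level (log2 -0.29 ± 0.07 SE, adjusted p = 0.00215). It was called in all 35 alternatives, at -0.34 to -0.25.

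Mmp3 and Mmp19 were called on the DHA diet, and both calls were lost without DHA-diet ozone library 1. Mmp3, stromelysin-1, cleaves many matrix proteins and activates other pro-MMPs, and lies on chromosome 9 at 7445822 to 7455975. Its lowest, median and highest levels were 14.1, 15.4 and 19.2 CPM in DHA-diet air and 16.8, 19.1 and 40.9 CPM in DHA-diet ozone. Library 1 of DHA-diet ozone was the highest, the next was 23.4 CPM, and the groups overlapped. The fitted difference was 1.40-fold (log2 0.49 ± 0.15 SE, adjusted p = 0.0198), and without library 1 it was 0.23 on the log2 scale (adjusted p = 0.0695). The call was also lost without DHA-diet air library 3 (0.44, adjusted p = 0.0512) and with only the 2 DHA-diet groups in the fit (0.49, adjusted p = 0.0712). With libraries 1 and 2 both left out it was 0.28 and called (adjusted p = 0.0395), as it was with limma-voom (0.31, adjusted p = 0.0319). On the control diet its lowest, median and highest levels were 13.3, 14.6 and 17.5 CPM in air and 14.8, 17.2 and 18.7 CPM after ozone, and it was not called (log2 0.17, 95% interval -0.15 to 0.49, adjusted p = 0.495).

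Mmp19, an MMP found in many tissues at rest, lies on chromosome 10 at 128626779 to 128636697. Its lowest, median and highest levels were 8.82, 10.7 and 12.2 CPM in DHA-diet air and 9.72, 13.3 and 21.4 CPM in DHA-diet ozone, where library 1 was again the highest. The groups overlapped, and the difference was 1.30-fold (log2 0.38 ± 0.13 SE, adjusted p = 0.0330). Without DHA-diet ozone library 1 the log2 difference was 0.21 (adjusted p = 0.138), and without libraries 1 and 2 it was 0.25 (adjusted p = 0.0928). The call was lost in 9 of 35 alternatives, among them leaving out DHA-diet air library 1, 3 or 4 or DHA-diet ozone library 6 alone (adjusted p = 0.0521 to 0.0792). On the control diet the means were 8.20 ± 0.664 and 9.99 ± 0.875 CPM (SD, n = 6), with a log2 difference of 0.28 that was not called (adjusted p = 0.151). This difference was called when the 2 control-diet groups were fitted alone (adjusted p = 0.0320) and when DHA-diet ozone libraries 1 and 2 were left out of the fit (adjusted p = 0.0437).

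**Figure D4:**
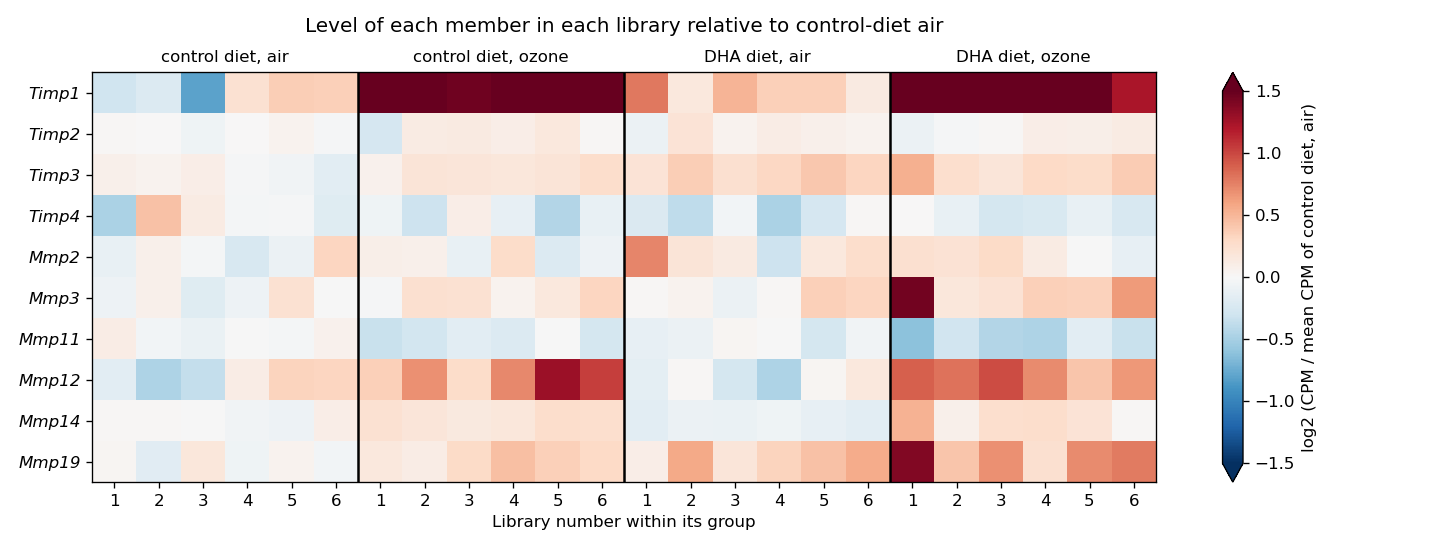
Colour gives the log2 ratio of each library's CPM to the mean of control-diet air for each gene (rows) in each of the 24 libraries (columns, numbered 1 to 6 within a group), with the scale ending at 1.5 in both directions. Timp1 is high in all 12 ozone libraries, Mmp12 is above the control-diet air mean in all 12, and Mmp3 and Mmp19 are highest in DHA-diet ozone library 1.

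Diet alone moved few of these mRNAs. In filtered air, Timp3 was the called gene described above, and Mmp19 had means of 8.20 ± 0.664 CPM on the control diet and 10.6 ± 1.41 CPM on the DHA diet (SD, n = 6), with 5 of 6 DHA-diet libraries above all control-diet libraries (log2 0.37, 95% interval 0.10 to 0.65, adjusted p = 0.139). Mmp19 passed the threshold when DHA-diet ozone library 1 was left out (adjusted p = 0.0353), or libraries 1 and 2 together (adjusted p = 0.0319). After ozone, 0 genes of the whole table (0.0%) were called between diets by edgeR, 2260 had an unadjusted p under 0.05, and DESeq2 and limma-voom called 80 and 19 genes, with 0 of the 10 among them. Of the 10 genes, 5 had an unadjusted p under 0.05 (Timp1, Timp3, Mmp3, Mmp11 and Mmp19), and all 10 overlapped between the diets, where 0.83% of all genes did not.

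Timp1 after ozone was 1.44-fold higher on the DHA diet (log2 0.52, 95% interval 0.02 to 1.02, unadjusted p = 0.0411, adjusted p = 0.335), and the groups overlapped. Mmp19 after ozone had means of 9.99 ± 0.875 and 13.8 ± 4.08 CPM (SD, n = 6; log2 0.47, 95% interval 0.20 to 0.74, adjusted p = 0.161), and it passed the threshold when DHA-diet ozone library 2 was left out (adjusted p = 0.0499). The median log2 diet difference over the 10 genes was 0.10 in air and 0.07 after ozone, beside 0.00 and 0.01 over all genes. For the interaction of diet and ozone, edgeR called 0 genes (0.0%), 988 had an unadjusted p under 0.05, 1 of the 10 among them (Timp3), and DESeq2 and limma-voom called 5 and 2 genes, with 0 of the 10.

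Variation between libraries of the same group gave a further description of the 10 genes. After removal of the 4 group means from log2 CPM, Timp1 and Mmp14 varied together over the 24 libraries (Pearson r = 0.657). So did Mmp3 and Mmp19 (0.701), Timp3 and Mmp3 (0.663), and Timp3 and Mmp19 (0.62). Timp1 and Mmp11 varied in opposite directions (-0.511). Libraries share depth and tissue composition, so these values are given with no test. DHA-diet ozone library 1 was the highest of all 24 for Timp1 (62.0 CPM), Timp3 (788 CPM), Mmp14 (126.2 CPM), Mmp3 (40.9 CPM) and Mmp19 (21.4 CPM). It was the lowest of all for Mmp11 (29.1 CPM). The correlations between these members were not computed without that library. Among 11982 genes whose mean reached 5 CPM, those most like Timp1 were Ran (r = 0.880, Spearman rho 0.847), Slc35b1 (0.855, 0.898) and Socs3 (0.845, 0.759). Without the 2 libraries farthest from the median, DHA-diet ozone 1 and 6, r was 0.832, 0.871 and 0.746. Socs3 encodes the feedback inhibitor of interleukin-6 family signalling, and Ran a small GTPase of nuclear transport.

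For Mmp3 the nearest were Serinc3 (r = 0.923), Map3k6 (0.879) and Lox (0.878), and without its farthest libraries, DHA-diet ozone 1 and DHA-diet air 5, r was 0.779, 0.772 and 0.687. For Mmp14 they were Riok3 (0.854), Plin2 (0.847) and Itsn2 (0.846), which went to 0.647, 0.502 and 0.620. For Mmp19 they were Lrp5 (0.813), Fzd4 (0.805) and Prkg1 (0.805), which went to 0.701, 0.581 and 0.483. Timp2 was most like Daglb (0.927), Timp3 most like Dock9 (0.852) and Ets2 (0.834), and Mmp2 most like Igf1 (0.799). Without the 2 farthest libraries of each member these went to 0.822, 0.769, 0.797 and 0.754. The nearest genes of Timp4, Mmp11 and Mmp12 were Lig4 (0.765), Mir568 (0.734) and Gemin6 (0.737), which went to 0.664, 0.636 and 0.631. All nearest genes were picked as the highest of the 11982 compared, and that choice raises their values.

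Among the other MMP genes, ozone gave 1 call. The table held 17 further MMP genes, of which 9 passed the filter. The other 8 were close to 0: Mmp1a, Mmp1b and Mmp10 had no counts in any library, Mmp7 and Mmp20 at most 2, and Mmp13, the mouse interstitial collagenase, 1 to 16. Of the 9, ozone changed 0 on the control diet and 1 on the DHA diet, Mmp9, the neutrophil and macrophage gelatinase, beside 16.8% and 23.7% of all genes. Mmp15, a membrane-type MMP, was the most abundant in CPM, at 248 ± 17.4 CPM in control-diet air and 216 ± 32.1 CPM in DHA-diet ozone (SD, n = 6), and was not called. Mmp16, Mmp17, Mmp23, Mmp25, Mmp27 and Mmp28 were not called in any comparison either.

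Mmp9 ranged from 6.74 to 15.8 CPM in air and 6.45 to 13.9 CPM after ozone on the control diet, and from 5.27 to 8.67 and 7.99 to 30.7 CPM on the DHA diet. Libraries 1 and 2 of DHA-diet ozone were the highest of all, at 17.8 and 30.7 CPM. The DHA-diet difference was 2.13-fold (log2 1.09 ± 0.28 SE, adjusted p = 0.00575), that on the control diet was -0.14 (adjusted p = 0.771), and the interaction was 1.23 (adjusted p = 0.658). Neutrophil markers other than Mmp8 and Mmp9 summed to 257 and 328 CPM in the same 2 libraries, against 67.7 to 99.0 in the other 4 of that group. Without both libraries the Mmp9 log2 difference was 0.48 (adjusted p = 0.122). Of 7 such markers tested, 1 was called higher with ozone on the control diet and 7 on the DHA diet. Over all genes, these shares were 8.93% and 12.7%. The median log2 differences of the markers were 0.05 and 1.47. The part of these markers in the Mmp9 difference was not tested. Mmp8, the neutrophil collagenase, had a log2 difference of 0.92 on the DHA diet (adjusted p = 0.0503).

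Related proteases outside the MMP family moved in both directions. Of 9 ADAM genes, membrane-anchored sheddases, ozone lowered 1 on the control diet (Adam8, log2 -0.47 ± 0.11 SE, adjusted p = 0.00313) and 2 on the DHA diet (Adam8, -0.32, and Adam19, -0.37), and raised 0 on either, beside 16.8% and 23.7% of all genes called. The Adam8 calls were lost without control-diet air libraries 1 to 3 (adjusted p = 0.112) and without DHA-diet ozone library 1 (adjusted p = 0.0628). Of 14 ADAMTS genes tested, secreted proteases of which several cut proteoglycans, 1 was lower on the control diet, and 2 were higher and 2 lower on the DHA diet, beside the same shares of all genes. Adamts10, a protease that binds fibrillin microfibrils, went from 208 ± 27.9 to 142 ± 7.91 CPM on the control diet (SD, n = 6; log2 -0.54 ± 0.08 SE, adjusted p = 3.61e-05) and from 219 ± 23.6 to 163 ± 11.5 CPM on the DHA diet (-0.43, adjusted p = 0.000192). Adamts4, an aggrecanase, rose 3.64-fold on the DHA diet (adjusted p = 0.00132). Its level was 11.1 CPM in DHA-diet ozone library 1 and 1.66 to 2.50 in the other 5, and without that library the log2 difference was 1.04 (adjusted p = 0.00360), against 1.86 with it. Its log2 difference on the control diet was 0.76 (adjusted p = 0.222), and it was called when DHA-diet ozone library 1 was out of the fit (adjusted p = 0.0272). Adamts15 was called higher (1.45-fold) and Adamts6 lower (0.650 times the air level) on the DHA diet. The medians of the ADAM list were -0.02 and -0.13 on the 2 diets, and of the ADAMTS list -0.03 and -0.12, beside -0.01 over all genes.

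**Figure D5:**
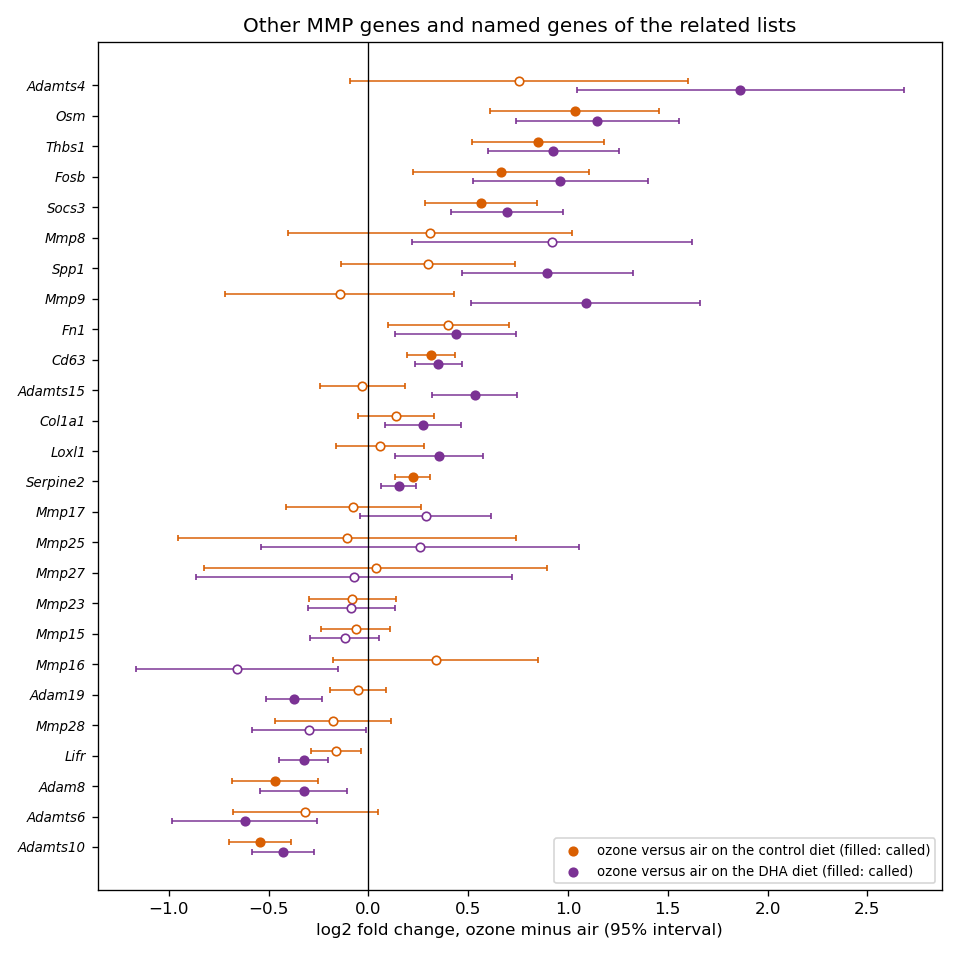
Log2 fold changes of ozone minus air with 95% confidence intervals for the other MMP genes that passed the filter and for called genes of the related lists, on the control diet (orange) and the DHA diet (purple). Filled points were called. Osm, Thbs1 and Cd63 are called higher on both diets, and Adamts10 and Adam8 lower on both.

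Of 17 genes tested that activate, dock or otherwise inhibit MMPs, 6 rose with ozone on each diet, 0 fell and 11 were not called. Over all genes, 8.93% and 12.7% were called higher. Thbs1, thrombospondin-1, which binds MMPs and activates transforming growth factor beta, went from 109 ± 10.5 to 196 ± 55.0 CPM on the control diet (SD, n = 6; 1.80-fold, adjusted p = 0.000691) and rose 1.90-fold on the DHA diet (adjusted p = 0.000172). Cd63, a tetraspanin to which Timp1 is known to bind, went from 197 ± 18.7 to 245 ± 15.9 CPM (SD, n = 6; 1.24-fold, adjusted p = 0.000542) and rose 1.27-fold on the DHA diet (adjusted p = 0.000104). Serpine2, a serine protease inhibitor, was also called on both, and Cd44 and Spock2 were called on the control diet and Furin and Lrp1 on the DHA diet. The list's median was 0.14 and 0.12, beside -0.01 over all genes.

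Of 20 matrix genes tested, 0 were called on the control diet and 5 rose on the DHA diet: Spp1, Loxl1, Fn1, Col1a1 and Eln. The list held genes of the elastic fibre and basement membrane, and also Col1a1, Col3a1, Fn1, Dcn and Spp1. Its basement membrane genes (Col4a1, Col4a2, Lama2, Lamb1, Lamc1, Nid1 and Hspg2) were not called on either diet. Over all genes, 23.7% were called on the DHA diet and 12.7% were called higher. Smooth muscle markers (6 of 6 in the table, none at 0) were called higher in 1 of 6 on the control diet and 5 of 6 on the DHA diet. They summed to 585 to 913 CPM in air and 745 to 828 after ozone on the control diet, and to 563 to 696 and 813 to 927 CPM on the DHA diet, and their part in these calls was not tested. Leaving out DHA-diet ozone library 1 left 2 called, 1 higher and 1 lower, on the DHA diet, and gave 2 higher on the control diet. Spp1, osteopontin, a matrix protein cut by Mmp3 and made by activated macrophages, was at 217 CPM in that library and 69.9 to 79.9 CPM in the other 5, with a log2 difference of 0.90 with it (adjusted p = 0.00268) and 0.49 without it (adjusted p = 0.00222). Loxl1, Fn1 and Col1a1 lost their call without it (adjusted p of 0.0602, 0.0999 and 0.0985).

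Of 19 genes tested from a list of interleukin-6 family signalling, AP-1 and other cytokine genes, 6 rose on the control diet, and 8 rose and 1 fell on the DHA diet. The list held Socs3, a feedback inhibitor of that signalling, and Tgfb1, Tnf and Il1b, which belong to neither the interleukin-6 family nor AP-1. The part of these genes in the Timp1 difference was not tested. Over all genes, 8.93% and 12.7% were called higher. Osm, oncostatin M, a cytokine of the interleukin-6 family that is known to induce Timp1, had lowest and highest levels of 0.799 and 2.06 CPM in control-diet air and 2.34 and 4.07 CPM in control-diet ozone, and 1.05 and 2.16, and 2.62 and 4.38 CPM on the DHA diet. Its groups did not overlap on either diet, and the differences were 2.05-fold (log2 1.03 ± 0.21 SE, adjusted p = 0.00115) and 2.21-fold (1.15 ± 0.20, adjusted p = 0.000176). Socs3 rose 1.48-fold (adjusted p = 0.00550) and 1.62-fold (adjusted p = 0.000578), and Fosb, an AP-1 subunit, 1.59-fold (adjusted p = 0.0340) and 1.95-fold (adjusted p = 0.00179). Fosl2, Junb and Stat3 were also called higher on both diets, Lif and Il1b on the DHA diet, and Lifr, the receptor subunit for Lif, was lower on the DHA diet (log2 -0.33 ± 0.06 SE, adjusted p = 0.000357). With control-diet air libraries 1 to 3 left out, 2 of the 19 were called on the control diet, and Socs3 (adjusted p = 0.0820) and Fosb (adjusted p = 0.126) were not among them. Without DHA-diet ozone library 1, 4 rose and 1 fell on the DHA diet. The list's median log2 difference was 0.16 and 0.28, beside -0.01 over all genes.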

How the data were processed

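The data were the deposited raw HTSeq counts per gene for 24 lung libraries. Per the submitters' processing notes, reads were handled in Partek, aligned with STAR to mm39 and counted by HTSeq; the sources used here give no versions, annotation or strand setting. RNA came from the Qiagen RNeasy Mini Kit, per the labels' protocols. Of the 60 pairs of libraries within groups, 0 had identical counts; pairs between groups were not compared.

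Counts were filtered with filterByExpr (minimum count 10, minimum total 15), given TMM factors and modelled as 4 group means by quasi-likelihood in edgeR 4.0.16 under R 4.3.3, with 20 residual degrees of freedom. Folds come from the fitted log2 difference. The fit was tested on simulated data. Alternatives were other scalings and filters, a replicate block, DESeq2 1.42.0, limma-voom (limma 3.58.1), the compared groups alone, and leaving out each library or the sets named in the text. Transcript lengths came from GENCODE M21 (GRCm38). Related genes were named by a rule: up to 4 called genes per list with the smallest p in the ozone comparisons, every other MMP gene past the filter, and the 3 genes most correlated with each of the 10. A gene of the rule is not reported here. The 10 genes, lists and rule were chosen with earlier results of these data known.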

Additional observations from a re-analysis of the deposited data

Results flagged for a closer look

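Of 40 groups of 6 libraries (10 genes in 4 groups), 2 held a library far from the other 5 by Dixon's ratio of gap to range at the 95% level, and chance alone gives about 1 in 20 groups. Timp2 in control-diet ozone library 1 was at 505.2 CPM, where the next lowest library was at 608.2 CPM (ratio 0.631). Mmp3 in DHA-diet ozone library 1 was at 40.89 CPM, where the next highest library was at 23.41 CPM (ratio 0.726).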

How the results depend on the processing

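Timp1 was called higher with ozone in all 35 alternatives on both diets (log2 1.70 to 2.43 and 1.87 to 2.30), as were Mmp12 and Mmp14 on the DHA diet, and no called difference among the 10 genes changed sign. Of the 10 genes, the number called for ozone on the control diet was 5, and 3 with library totals, 2 without control-diet air libraries 1 to 3 and 2 without libraries 4 to 6. Over all genes it was 2713, and 1803 without control-diet air libraries 1 to 3. Library totals moved the split on the control diet from 1442 higher and 1271 lower to 940 and 1737, and in air between diets from 117 and 69 to 72 and 113.

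The diet comparison in air called 186 genes, and 85 with a replicate block, 583 with DESeq2, 849 with limma-voom, 359 with the compared groups alone, 0 without control-diet air libraries 1 to 3, 1551 without libraries 4 to 6 and 747 without DHA-diet ozone libraries 1 and 2. The last 3 settings called 0, 1 and 2 of the 10 genes. After ozone, where edgeR called 0 genes between diets, DESeq2 called 80, limma-voom 19, the compared groups alone 2, and the fit without control-diet air libraries 4 to 6 called 27. For the interaction these were 5 (DESeq2), 2 (limma-voom) and 4 (without libraries 4 to 6). The causes were not tested.

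Leaving out 1 library at a time gave 2045 to 3049 genes (3 to 5 of the 10) for ozone on the control diet, 3175 to 3973 (4 to 6) on the DHA diet, 49 to 716 (1 to 2) for diet in air, 0 to 144 (0 to 1) for diet after ozone and 0 to 3 (0 to 0) for the interaction. The lowest count for diet in air came without control-diet air library 1 and the highest without library 6, and the 144 came without DHA-diet ozone library 2.

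The labels do not say that libraries of the same number are paired. Over 36 such pairs the mean correlation of deviations was -0.0169 (-0.210 to 0.0966). None of the 24 was nearest to a library with its number (0 of 24). Such correlations cannot show whether libraries of the same number shared a cage, day or batch. With the replicate block, 1267 genes were higher and 1060 lower for ozone on the control diet, and 1843 and 1590 on the DHA diet, with Mmp11 on the control diet (adjusted p = 0.0528) and Mmp19 on the DHA diet (adjusted p = 0.0630) no longer called. Low counts limit Mmp12, Timp4 and Timp1 in air the most.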
